A study of Mus musculus with 6 samples.

Results

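Butyrophilins and butyrophilin-like proteins are membrane proteins related to the B7 ligands of T cells. The set described here holds 7 mouse genes of that family, Btnl1, Btnl2, Btnl4, Btnl6, Btnl9, Btn1a1 and Btn2a2, of the 26214 features counted in each library. They were chosen by symbol, with their counts in the comparison of knockout with wild-type tumours already known, so their differences between the groups are a description. No p-value is given for a member, and counts of members called are printed only beside the share over all genes. All 7 symbols were found in the count tables, 6 had at least 1 read in some library, and 5 passed the filter on low counts. Btnl9 and Btn2a2 did not pass it.

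The RNA came from colon tumours of Trim21 -/- mice (3 libraries) and of wild-type mice (3 libraries), all of which had received the carcinogen azoxymethane and, to inflame the colon, dextran sulfate sodium. Trim21 encodes a ubiquitin ligase and cytosolic antibody receptor that itself carries a B30.2 domain, the domain found at the cytoplasmic end of many butyrophilins. Strain, sex, age, the nature of the Trim21 allele and the number of mice per sample are not given by the sources used here. A bulk tumour sample mixes cancer cells, remaining mucosa, stroma and immune cells, so fewer cells of a type and less RNA per cell cannot be told apart.

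In the mouse intestine, Btnl1, Btnl4 and Btnl6 are made by the differentiated epithelial cells of the villus or surface. Btnl1 is known to pair with Btnl6 or Btnl4 on the cell surface. In the small intestine Btnl1 is needed for the normal compartment of gamma-delta intraepithelial lymphocytes that carry the Vgamma7 chain, and the pair of Btnl1 and Btnl6 is recognised through that chain. Human BTNL3 and BTNL8 have a like role for Vgamma4 cells of the human colon.

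Total counts were 17937821 to 19987295 in the knockout libraries and 27085599 to 29742757 in the wild-type libraries, so the wild-type libraries were deeper. Trim21 itself measured 14.6 ± 3.76 CPM in knockout tumours and 23.2 ± 5.68 CPM in wild-type tumours (CPM, reads per 1000000 counts; mean ± SD, n = 3 each), with every knockout value below every wild-type value but reads in every knockout library (edgeR adjusted p = 0.418). The count tables do not show which exons these reads cover. All 12 genes of a pan-epithelial list passed the filter. Their mean log2 CPM was 8.84 to 8.90 in the knockout libraries and 8.70 to 8.90 in the wild-type libraries, ranges that overlap. Their summed level was 8037 to 8361 CPM in the knockout libraries and 6945 to 8035 CPM in the wild-type libraries, ranges that nearly meet. Over all 16281 genes tested the median log2 fold change was -0.01, and edgeR's quasi-likelihood test called 0 genes in either direction (adjusted p threshold 0.05). At an unadjusted p under 0.05 there were 1080 genes higher and 670 lower. By DESeq2 there were 241 calls with the knockout higher and 93 with it lower, and by limma-voom there were 0 calls.

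Btnl1, Btnl2, Btnl4 and Btnl6 lie together on chromosome 17 of GRCm38, the assembly that mm10 denotes, between the class II genes of the histocompatibility complex and Notch4. Btnl2 (chr17:34354822-34369495) and Btnl1 (chr17:34377132-34386028) are on the plus strand, and Btnl4 (chr17:34466562-34477318) and Btnl6 (chr17:34507804-34517352) are on the minus strand. Btnl9 is on chromosome 11 (chr11:49165585-49187159), and Btn1a1 (chr13:23456992-23465901) and Btn2a2 (chr13:23477676-23488857) are neighbours on chromosome 13, all 3 on the minus strand. All 7 are protein-coding in GENCODE M21, and none overlaps another annotated gene.

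The promoter windows of the 4 genes on chromosome 17 are shown because their RNA levels were compared side by side. Each window runs from 250 bases before to 50 bases after the RefSeq start, in GRCm38.p6, and is written along its gene. RefSeq windows were found for 6 of the 7 members, with Btn1a1 the exception. In the first pair, Btnl1 (chr17:34376882-34377181, plus strand) and Btnl2 (chr17:34354572-34354871, plus strand), capitals mark the 8 letters CAAAGTCC, which are of the type bound by HNF4, a nuclear receptor of gut epithelium.
Btnl1: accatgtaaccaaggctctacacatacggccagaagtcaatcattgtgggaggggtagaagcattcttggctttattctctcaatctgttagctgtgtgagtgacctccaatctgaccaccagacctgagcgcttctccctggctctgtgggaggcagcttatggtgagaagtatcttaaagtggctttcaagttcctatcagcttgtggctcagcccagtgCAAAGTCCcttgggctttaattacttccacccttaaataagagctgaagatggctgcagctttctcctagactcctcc
Btnl2: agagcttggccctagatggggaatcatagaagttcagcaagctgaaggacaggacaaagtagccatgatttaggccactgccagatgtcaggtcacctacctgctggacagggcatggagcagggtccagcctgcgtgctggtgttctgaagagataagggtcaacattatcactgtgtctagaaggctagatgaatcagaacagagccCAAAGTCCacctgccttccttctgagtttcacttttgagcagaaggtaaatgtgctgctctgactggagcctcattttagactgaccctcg
The first of these letters lies 28 bases before the start in Btnl1 and 41 bases before it in Btnl2. The other 4 windows hold no such match on either strand, while 467 of 32851 RefSeq promoter windows (1.42%) do. These letters were chosen after the windows of Btnl1 and Btnl2 had been read, so that both hold them is no support for a shared factor. The letters TTTATG, of the type bound by CDX factors, were found among the 6 windows in that of Btnl9, starting 92 bases before its start, and in 11.9% of all windows. No window holds both motifs, so they do not overlap.

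In the second pair, Btnl4 (chr17:34475888-34476187, minus strand) and Btnl6 (chr17:34517303-34517602, minus strand), capitals mark the bases that differ between the genes or have no partner in the other.
Btnl4: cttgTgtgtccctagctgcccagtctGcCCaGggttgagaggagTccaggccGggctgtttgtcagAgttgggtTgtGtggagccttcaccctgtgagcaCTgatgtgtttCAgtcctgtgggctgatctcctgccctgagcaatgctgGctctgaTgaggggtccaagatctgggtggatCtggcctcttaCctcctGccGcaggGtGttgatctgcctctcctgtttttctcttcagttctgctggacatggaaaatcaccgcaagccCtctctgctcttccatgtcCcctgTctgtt
Btnl6: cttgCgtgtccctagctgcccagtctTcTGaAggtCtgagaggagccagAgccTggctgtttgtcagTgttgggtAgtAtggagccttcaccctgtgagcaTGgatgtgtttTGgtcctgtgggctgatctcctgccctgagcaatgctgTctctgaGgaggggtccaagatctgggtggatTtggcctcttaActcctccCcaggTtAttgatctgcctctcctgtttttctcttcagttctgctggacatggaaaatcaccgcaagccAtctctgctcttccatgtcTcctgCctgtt
The Btnl4 window lies wholly inside the GENCODE gene, whose minus-strand start is at 34477318, so RefSeq and GENCODE place this start differently. When aligned, the windows of Btnl4 and Btnl6 share 275 identical bases, or 91.7% of 300, while the other 14 pairs of windows share 55.7% to 61.7%. The likeness extends into the transcripts. Of the 50-base stretches of annotated exon sequence, 14% in Btnl4 and 6.58% in Btnl6 also occur in another gene, against 0% in Btnl1, Btnl2, Btn1a1 and Btn2a2. At 100 bases the shares are 3.16% in Btnl4 and 0.0605% in Btnl6. How reads that match several places were counted is not given by the sources used here, so a part of the Btnl4 and Btnl6 counts may be split between them and their relatives.

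Among the members, Btnl1 differed most between the groups. The knockout libraries held 100, 55 and 111 Btnl1 reads and the wild-type libraries 8, 21 and 15 reads. Scaled to library size this is 4.96, 3.02 and 5.74 CPM in knockout tumours and 0.268, 0.711 and 0.556 CPM in wild-type tumours. Every knockout library lay above every wild-type library, and the exact Poisson intervals of the nearest pair did not meet: 2.28 to 3.93 CPM for knockout replicate 2 and 0.440 to 1.09 CPM for wild-type replicate 2 (95%, counting error only). The means were 4.57 ± 1.40 CPM in knockout tumours and 0.512 ± 0.225 CPM in wild-type tumours (SD, n = 3 each), a log2 fold change of 3.15 (SE 0.46), or 8.87-fold. Ordered from the highest positive log2 fold change down, it stood in place 8 of the 16281 genes tested.

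**Figure D1:**
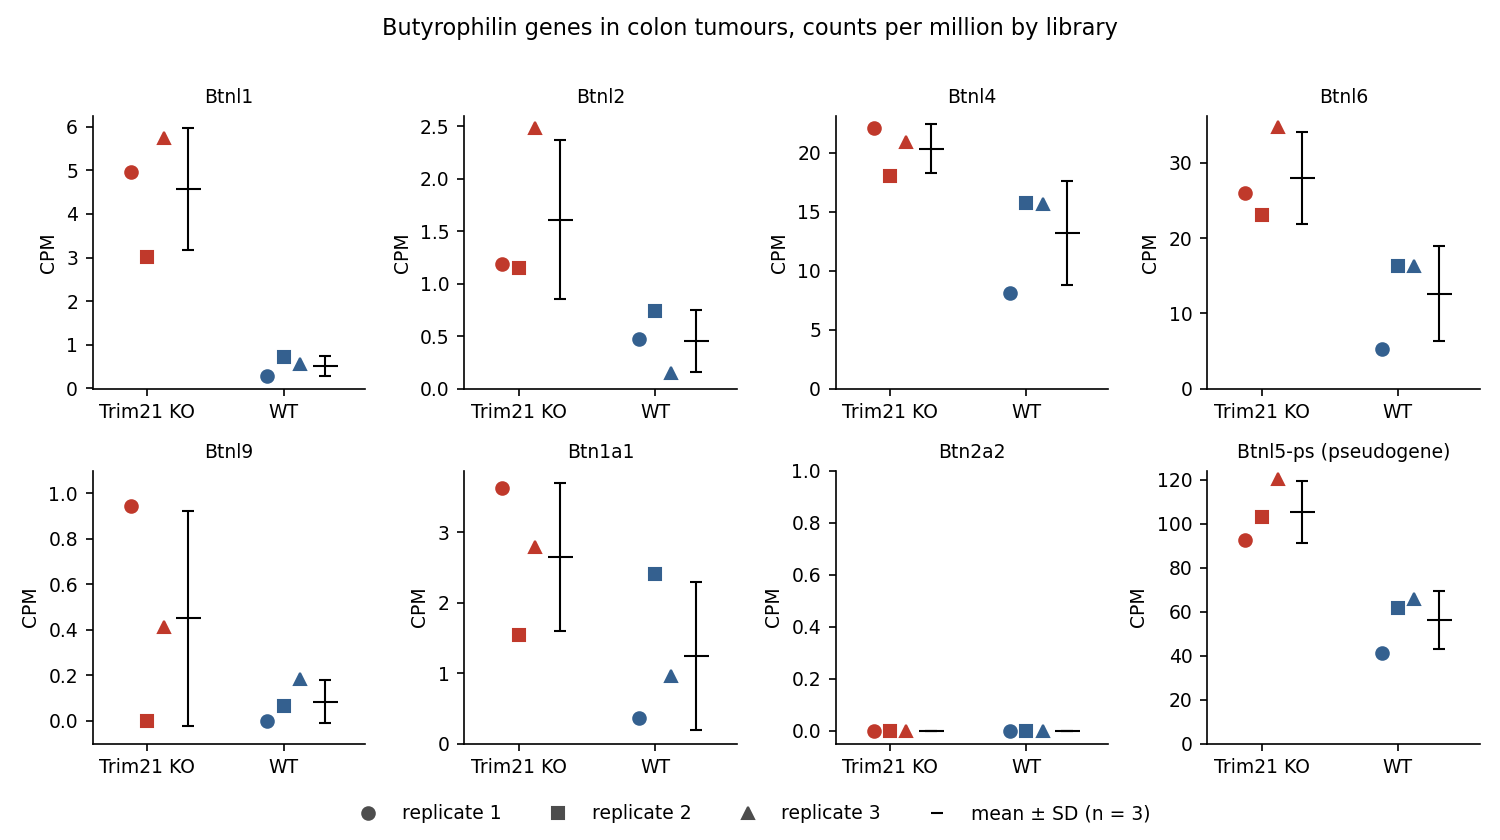
Level of each gene in each library, in CPM, with 1 panel per gene, its own vertical axis that includes 0, points for libraries and bars for the mean and SD of 3 libraries (knockout left, wild type right). For Btnl1 the knockout libraries sit at 3.02 to 5.74 CPM and the wild-type libraries at 0.268 to 0.711 CPM, and Btn2a2 is at 0 throughout.

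Btnl6 is the partner of Btnl1 in recognition by Vgamma7 cells. It measured 25.9, 23.1 and 34.8 CPM in the knockout libraries and 5.30, 16.3 and 16.3 CPM in the wild-type libraries. The groups did not overlap, and wild-type replicate 1 was far below the other 2 wild-type libraries. The log2 fold change was 1.15 (SE 0.41), or 2.22-fold, and 0.78 when wild-type replicate 1 was left out.

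Btnl4, the other known partner of Btnl1, measured 22.1, 18.0 and 20.9 CPM in the knockout libraries and 8.12, 15.7 and 15.7 CPM in the wild-type libraries. The lowest knockout library stood only slightly above the highest wild-type library, and wild-type replicate 1 was again the lowest. Its log2 fold change was 0.63 (SE 0.26), or 1.54-fold. Without wild-type replicate 1 the log2 fold change was 0.37.

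Btnl2, known as a negative regulator of T cell activation, was scarcer. It had 24, 21 and 48 reads in the knockout libraries and 14, 22 and 4 reads in the wild-type libraries. In CPM these are 1.19, 1.15 and 2.48 in the knockout and 0.470, 0.745 and 0.148 in the wild type. The groups did not overlap. Knockout replicate 3 was the highest, as for Btnl6, and wild-type replicate 3 the lowest, unlike for Btnl4 and Btnl6. The log2 fold change was 1.81 (SE 0.64), or 3.50-fold.

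Btn1a1, the founding butyrophilin, is best known as a protein of the milk fat globule. It measured 3.62, 1.54 and 2.79 CPM in the knockout libraries and 0.369, 2.40 and 0.964 CPM in the wild-type libraries. The groups overlapped, since wild-type replicate 2 lay above knockout replicate 2. The log2 fold change was 1.09 (SE 0.67). It was 0.65 without wild-type replicate 1 and 1.99 without wild-type replicate 2. The milk protein genes Csn2, Csn1s1, Wap and Lalba had 0 reads in all 6 libraries.

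Btnl9 had few reads and Btn2a2 had none. Btnl9, a gene expressed in endothelium and fat of several organs, had 19, 0 and 8 reads in the knockout libraries and 0, 2 and 5 reads in the wild-type libraries. The groups overlapped, with a library at 0 in each. Btn2a2, a butyrophilin of antigen-presenting cells that restrains T cells, was listed with 0 reads in all 6 libraries. The annotation used for counting is not known, so a gene that was not counted and a gene without RNA cannot be told apart here. If it was counted, a count of 0 allows up to 0.101 to 0.165 CPM in a single library (3 reads) and up to 0.0208 CPM over the 144198654 counts together.

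Thus all 5 members that passed the filter had a positive log2 fold change, where 47.9% of all tested genes did. Their groups did not overlap, with the knockout above, for 4 of the 5, beside 1536 genes or 9.43% of all 16281. The edgeR test called 0 of the 5, beside 0% of all genes in that direction. DESeq2 called 1, Btnl1, beside 1.51% of the 15968 genes to which it gave an adjusted p. Because the comparison itself was in view when the members were chosen, and because a gene can pass the filter through its higher group alone, these shares carry no weight as evidence about the family.

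Levels of different genes were compared per kilobase of merged exons (RPKM). Btnl6 led in both groups, with 16.0 ± 3.48 RPKM in knockout tumours and 7.21 ± 3.62 RPKM in wild-type tumours (SD, n = 3 each). Btnl4 followed, with 8.54 ± 0.877 RPKM in knockout tumours and 5.54 ± 1.84 RPKM in wild-type tumours. In the wild type these neighbours in the order lay within each other's spread, and with the longest transcript as the length Btnl4 (7.49 RPKM) came above Btnl6 (7.21 RPKM) there. Btnl1 came next in knockout tumours at 1.42 ± 0.434 RPKM but below Btn1a1 and Btnl2 in the wild type at 0.159 ± 0.0696 RPKM. With the longest transcript as the length, Btnl1 had 2.16 RPKM in knockout tumours and 0.242 RPKM in wild-type tumours, and in the wild type it then stood above Btnl2 (0.177 RPKM). Btn1a1 had 0.643 ± 0.255 RPKM in knockout tumours and 0.302 ± 0.254 RPKM in wild-type tumours, and Btnl2 had 0.622 ± 0.293 RPKM in knockout tumours and 0.176 ± 0.115 RPKM in wild-type tumours. The last 3 wild-type levels did not differ beyond their spread. Among all tested genes, 22.2% had a lower RPKM than Btnl1 in the knockout and 3.16% in the wild type, so even the higher Btnl1 level was a low one.

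Comparing members inside a library removes differences of depth. The per-length ratio of Btnl1 to Btnl6 was 0.104, 0.0709 and 0.0895 in the knockout libraries and 0.0275, 0.0238 and 0.0185 in the wild-type libraries. The ratio of Btnl1 to Btnl4 was 0.166, 0.124 and 0.203 in the knockout libraries and 0.0244, 0.0333 and 0.0262 in the wild-type libraries. In both cases the groups did not overlap, so Btnl1 was higher in the knockout also relative to its known partners, while remaining scarcer than either in every library. Of the reads of Btnl1 and Btnl6 together, Btnl1 gave 11.6% in the lowest knockout library (exact binomial 95% interval 8.82% to 14.8%) and 4.82% in the highest wild-type library (2.10% to 9.28%), whose intervals overlap slightly. The ratio of Btnl6 to Btnl4 was 1.598, 1.745 and 2.265 in the knockout libraries and 0.888, 1.40 and 1.41 in the wild-type libraries, closer together than those with Btnl1. Since these ratios are built from the values that chose the members, they too are descriptive.

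**Figure D2:**
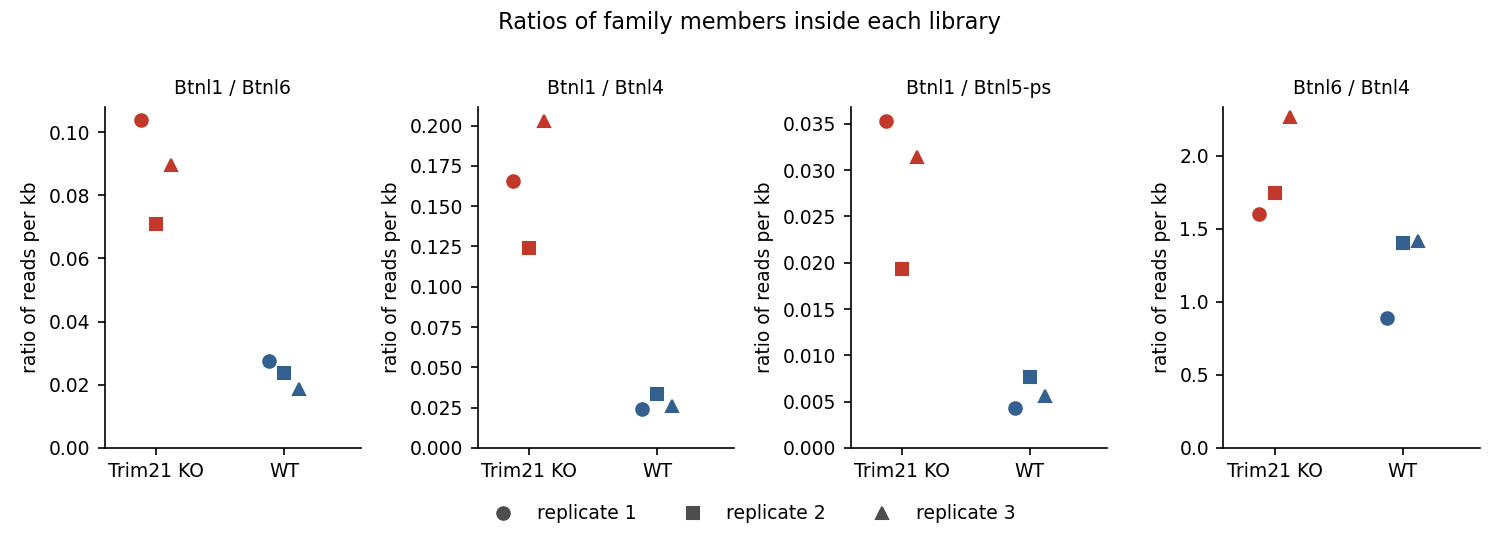
Per-length ratios between members inside each library, on linear axes that start at 0, with points for libraries (knockout left, wild type right). The ratio of Btnl1 to Btnl6 is 0.0709 to 0.104 in the knockout libraries and 0.0185 to 0.0275 in the wild-type libraries.

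The most abundant family gene in the tumours was none of the 7. Btnl5-ps (chr17:34488070-34497429, minus strand), annotated as a transcribed pseudogene between Btnl4 and Btnl6, measured 92.7, 103.1 and 120.3 CPM in the knockout libraries and 41.4, 61.6 and 65.8 CPM in the wild-type libraries. The groups did not overlap, and the log2 fold change was 0.91 (SE 0.19; edgeR adjusted p = 0.322, not passing). Per length it reached 49.5 ± 6.56 RPKM in knockout tumours and 26.4 ± 6.14 RPKM in wild-type tumours (SD, n = 3 each). Of its 50-base exon stretches, 14.6% occur in another gene. It was singled out after its values were seen. Of the 15 other butyrophilin relatives in the tables, Btnl5-ps and Ermap passed the filter, Ermap with a log2 fold change of -0.24. Among the rest, 8 Skint genes, relatives known from mouse skin and thymus, had 0 reads in every library.

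Along chromosome 17, the 6 adjacent tested genes from Btnl2 to Btnl6, over 162.5 kb, all had every knockout value above every wild-type value, beside 9.43% of all tested genes. These are the 4 members, Btnl5-ps and BC051142, a gene known by a clone name, between Btnl1 and Btnl4, that was also singled out after its values were seen. BC051142 had 1.54, 0.604 and 0.983 CPM in the knockout libraries and 0.335, 0.406 and 0.0371 CPM in the wild-type libraries, a log2 fold change of 1.97 (SE 0.75; edgeR adjusted p = 0.430, not passing). Among the 21 tested genes on both sides, from Psmb9 to H2-Eb2 and from Notch4 to Tnxb, none had that pattern, and no difference from the share over all genes was tested. The 9 genes before Btnl2, which include the class II genes H2-Ab1, H2-Aa and H2-Eb1, had log2 fold changes of 0.07 to 0.38. Ager, the receptor for glycation end products, was the 1 flanking gene without overlap, at -1.0005 (SE 0.37; edgeR adjusted p = 0.418). The window was chosen around the members, so its centre was picked on these values and no test was made of the stretch.

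**Figure D3:**
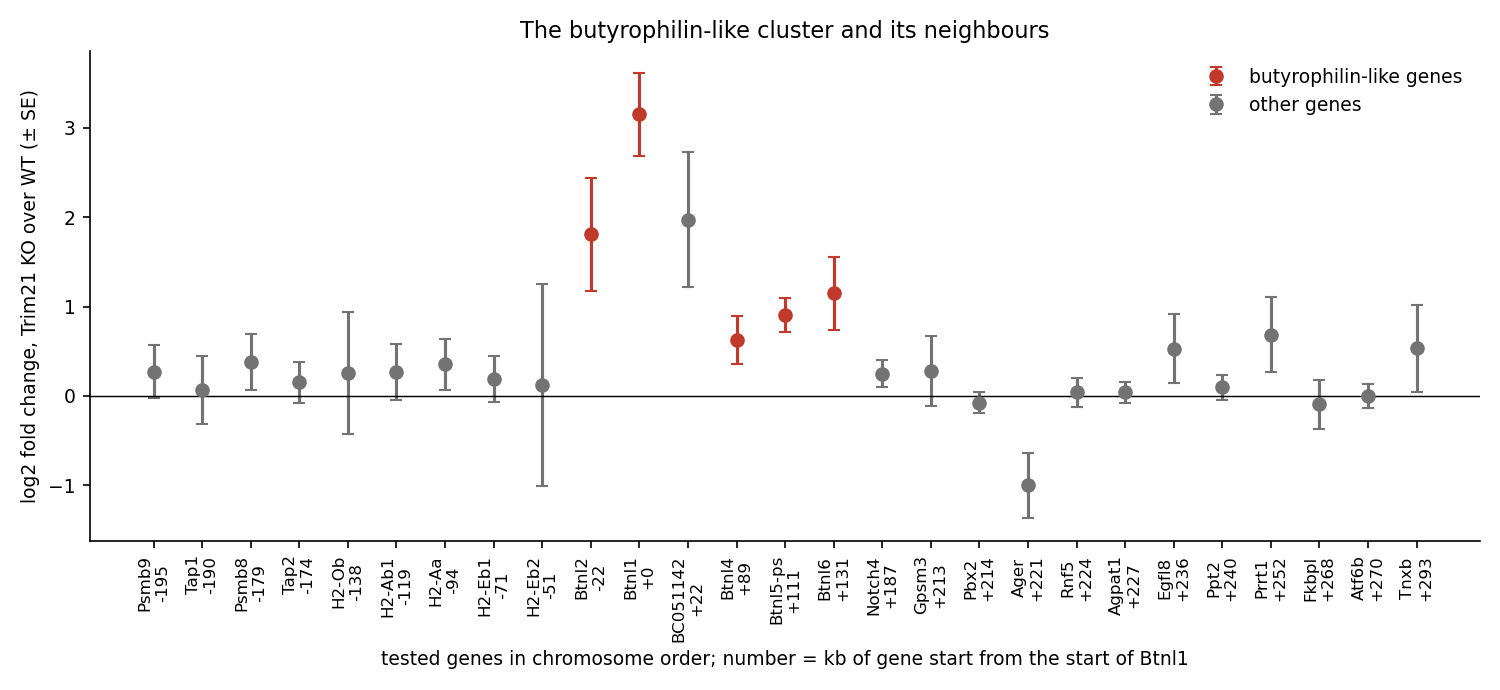
Log2 fold change (knockout over wild type) with its standard error for tested genes around the butyrophilin-like genes of mouse chromosome 17, in chromosome order and labelled with their distance in kb from the start of Btnl1. The 6 adjacent genes from Btnl2 to Btnl6 lie between 0.63 and 3.15, and the flanking genes lie between -1.0005 and 0.68 with all groups overlapping except Ager.

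Because differentiated epithelial cells of the gut make Btnl1, Btnl4 and Btnl6, genes of mature colonocytes were compared in the same libraries. Of a list of 22 such genes, 18 had a positive and 4 a negative log2 fold change, with a median of 0.70 beside -0.01 over all tested genes. None passed the edgeR test, and 9 had an unadjusted p under 0.05 with higher knockout values. Examples are Aqp8, a water channel of the colon surface, with 30.1 ± 6.81 CPM in knockout tumours and 2.67 ± 1.16 CPM in wild-type tumours (edgeR adjusted p = 0.181), and Scnn1g, a subunit of the epithelial sodium channel, with 11.99 ± 3.81 CPM in knockout tumours and 2.44 ± 0.900 CPM in wild-type tumours (edgeR adjusted p = 0.322). The mean log2 CPM of the list was 6.56 to 6.88 in the knockout libraries and 4.96 to 5.96 in the wild-type libraries, lowest in wild-type replicate 1. Without that library the median was 0.27.

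The members were set against this list inside each library, as log2 CPM minus the list's mean log2 CPM. For Btnl1 the result was -4.45, -4.92 and -4.33 in the knockout libraries and -6.47, -6.30 and -6.60 in the wild-type libraries. The groups did not overlap, and the knockout mean exceeded the wild-type mean by 1.88, compared with 3.00 without the adjustment on the same scale. For Btnl6 the difference was 0.18 and the groups overlapped, where it was 1.29 unadjusted. Against this mean the sign turned for Btnl4, with -2.32, -2.38 and -2.48 in the knockout libraries and -1.92, -1.98 and -1.98 in the wild-type libraries. Every knockout value thus lay below every wild-type value. A list mean can be moved by a few genes with large differences, such as Aqp8 (log2 fold change 3.50). The list's median log2 fold change was 0.70, close to the 0.63 of Btnl4 itself. For Btnl2 (0.64) and Btn1a1 (0.18) the groups overlapped. Relative to the pan-epithelial list, in contrast, the differences were near the unadjusted ones, at 2.94 for Btnl1, 1.69 for Btnl2, 0.62 for Btnl4 and 1.23 for Btnl6, without overlap in these 4. Whether the amount of mature colonocyte RNA accounts for any of these differences was not tested.

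**Figure D4:**
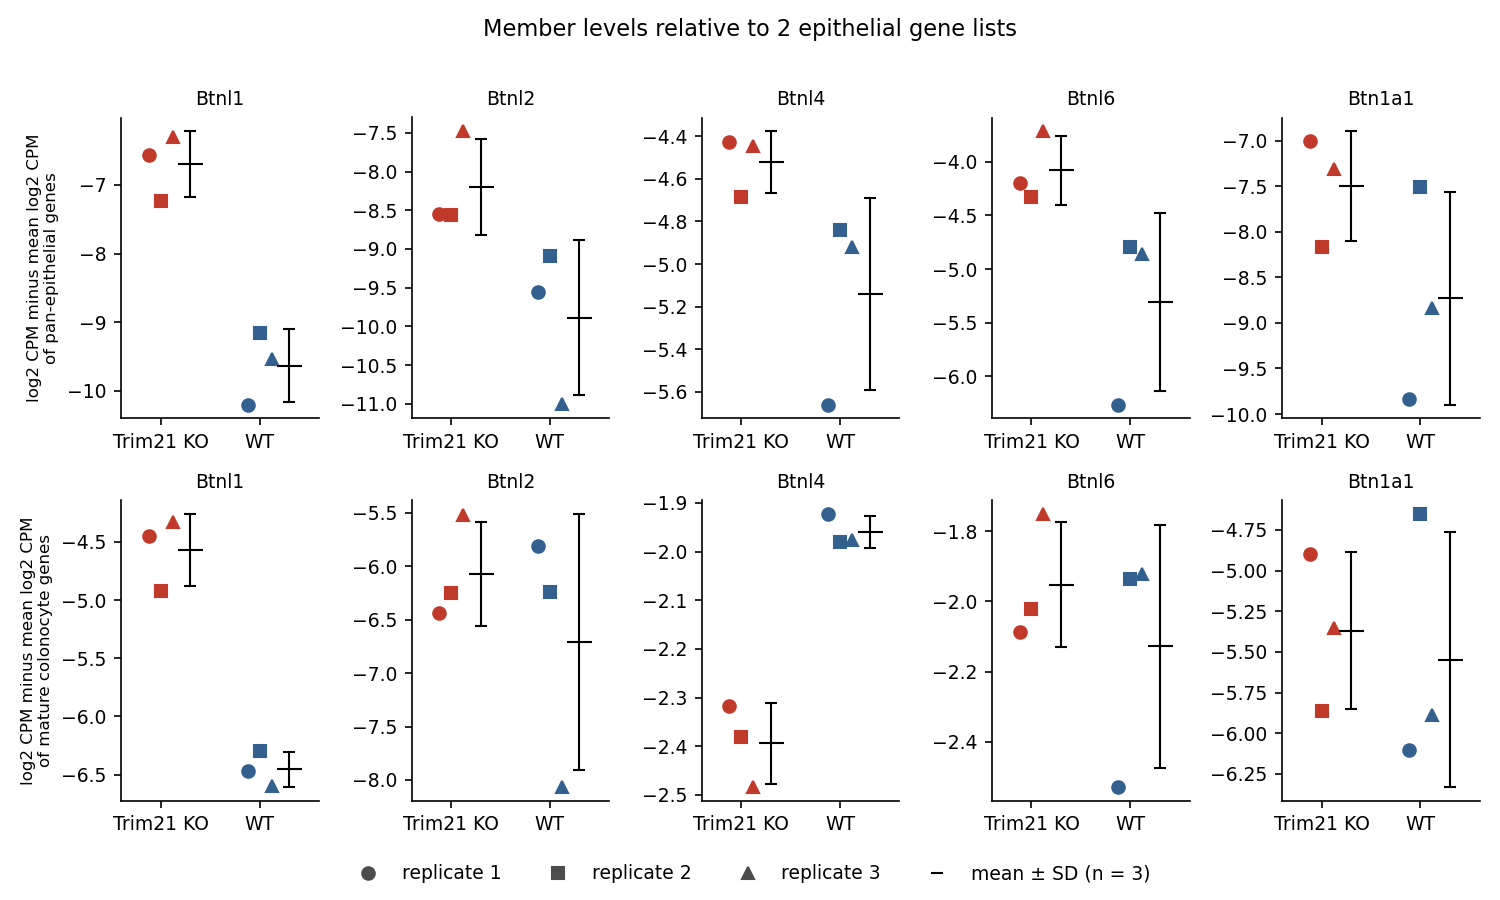
Log2 CPM of each gene minus the mean log2 CPM of 12 pan-epithelial genes or of 22 mature colonocyte genes in the same library, with points for libraries (knockout left, wild type right). Against the colonocyte genes Btnl1 keeps its groups apart with the knockout above, and Btnl4 has the knockout below.

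Across the 6 libraries, which fall into 2 groups and share their scaling, log2 CPM of Btnl4 and Btnl6 gave Pearson's r = 0.980 and 0.958 after each group's mean was removed. Btnl1 with Btnl6 gave 0.888 and 0.886, and Btnl1 with Btnl4 gave 0.865 and 0.880. Btnl2 gave r = 0.818 with Btnl1 and 0.266 after removal of the group means, and r = 0.605 with Btnl6 and -0.006 after it. These values rest on few reads for Btnl2 and are a description. A rule named the 8 genes most like Btnl1 among 13067 candidates. Candidates had an average log2 CPM of 1 or above. Members and Gm, Rik, receptor segment and small RNA symbols were left out. The nearest were Slc8b1 (r = 0.999), Ppm1e (0.995), Scin (0.994), Sgk1 (0.994), P2ry12 (0.994), Cpt1a (0.992), Hpgd (0.991) and Slc25a34 (0.991). Slc8b1, a mitochondrial sodium and calcium exchanger, measured 21.2, 19.4 and 21.3 CPM in the knockout libraries and 13.7, 15.7 and 15.2 CPM in the wild-type libraries, a much smaller span than that of Btnl1. Scin, which severs actin filaments, measured 44.6, 33.1 and 57.6 CPM in the knockout libraries and 9.16, 16.99 and 13.1 CPM in the wild-type libraries. Set against these candidates, Btnl6 with r = 0.888 would take only place 576, and Btnl4 place 746.

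The lymphocytes that the butyrophilin-like pairs address were read through a list of intraepithelial and gamma-delta T cell genes. Of the 34 symbols written, 24 were in the tables and 21 passed the filter. None passed the edgeR test in either direction and none had an unadjusted p under 0.05. Of these 21, 13 had a positive and 8 a negative log2 fold change, with a median of 0.295, which was 0.15 without wild-type replicate 2 and 0.64 without wild-type replicate 3. Their summed level was 124.3 to 139.7 CPM in the knockout libraries and 128.7 to 146.0 CPM in the wild-type libraries, ranges that overlap. Most of this sum came from Sox13, Cd244a, Cd247 and Fcer1g in every library, so it says little about T cells. Sox13 alone, a transcription factor not limited to lymphocytes, measured 48.9, 38.2 and 29.5 CPM in the knockout libraries and 51.3, 42.1 and 55.6 CPM in the wild-type libraries. Cd3e, a subunit of the T cell receptor complex, measured 1.438, 1.098 and 2.172 CPM in the knockout libraries and 0.604, 0.474 and 1.59 CPM in the wild-type libraries, with overlapping groups. Klrd1, a lectin receptor of cytotoxic cells, measured 1.11 ± 0.161 CPM in knockout tumours and 0.636 ± 0.0949 CPM in wild-type tumours (SD, n = 3 each; edgeR adjusted p = 0.4999). Among the 21 tested genes of the list it was the 1 whose groups did not overlap. No symbol for a constant region of the gamma or delta chain was matched, so Vgamma7 cells themselves were not measured. For 8 alpha-beta T cell genes the median was 0.353, with 7 positive and 0 passing, and it was 0.16 without wild-type replicate 1 and 0.84 without wild-type replicate 3.

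Epithelial factors known to maintain intraepithelial lymphocytes were mixed. Of 16 tested, 11 had a positive and 5 a negative log2 fold change, with a median of 0.10 and 0 past the edgeR test. The median was 0.05 without wild-type replicate 1 and 0.31 without wild-type replicate 2. Il7, a growth factor of lymphocytes, measured 14.2, 11.8 and 11.8 CPM in the knockout libraries and 6.61, 8.94 and 7.16 CPM in the wild-type libraries, without overlap (log2 fold change 0.74, edgeR adjusted p = 0.338). Il15, on which many intraepithelial lymphocytes depend, measured 6.70, 7.63 and 7.50 CPM in the knockout libraries and 4.36, 4.98 and 4.78 CPM in the wild-type libraries, again without overlap (log2 fold change 0.63, edgeR adjusted p = 0.370). Neither passed the test.

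Transcription factors of gut epithelium gave 14 positive and 3 negative log2 fold changes among 17 tested, with a median of 0.29 (0.17 without wild-type replicate 1) and 0 past the edgeR test. Klf4, a factor of differentiated epithelial cells, measured 316.2, 226.0 and 280.8 CPM in the knockout libraries and 75.8, 157.9 and 132.6 CPM in the wild-type libraries (log2 fold change 1.17, edgeR adjusted p = 0.334). Hnf4 and Cdx genes are added, beyond the naming rule, because their types of motif were searched in the promoters. Hnf4a measured 629.9, 568.1 and 635.5 CPM in the knockout libraries and 392.9, 522.7 and 566.0 CPM in the wild-type libraries, without overlap, and its log2 fold change was 0.31 (edgeR adjusted p = 0.498). Cdx2 had a log2 fold change of 0.29, and its groups overlapped (edgeR adjusted p = 0.875). Of their relatives, Hnf4g had a log2 fold change of 0.40 (edgeR adjusted p = 0.454) and Cdx1 of 0.68 (edgeR adjusted p = 0.494), both with overlapping groups.

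Lists of other cell types also differed in their values. All 11 genes of a smooth muscle list had a positive log2 fold change, with a median of 1.00. That median was 0.74 without wild-type replicate 1 and 1.28 without wild-type replicate 2. The mean log2 CPM of the list was 6.10 to 6.78 in the knockout libraries and 4.41 to 5.97 in the wild-type libraries. All 11 goblet cell genes were positive as well, with a median of 1.15 (0.82 without wild-type replicate 1 and 1.77 without wild-type replicate 2). Of 20 genes of small intestinal enterocytes, where Btnl1, Btnl4 and Btnl6 are also made, 12 passed the filter. Of these, 10 were positive, with a median of 0.58 (0.37 without knockout replicate 3). Alpi, the intestinal alkaline phosphatase, measured 4.37, 1.37 and 1.66 CPM in the knockout libraries and 0.0671, 0 and 0.185 CPM in the wild-type libraries (edgeR adjusted p = 0.322). Its wild-type values are near the limit of 3 reads. None of these genes passed the edgeR test.

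Genes that mark position along the colon had the highest median of the lists, 1.49 over 10 tested genes, of which 9 were positive (0.93 without knockout replicate 2). The groups did not overlap for only 1 of the 10. The Hoxd genes of the list were each highest in knockout replicate 2, with overlapping groups. Hoxd13, a homeobox gene of the hindgut, measured 3.62, 117.9 and 38.7 CPM in the knockout libraries and 8.12, 8.19 and 9.38 CPM in the wild-type libraries. Knockout replicates 2 and 3 thus stood apart from the other 4 libraries, and the groups overlapped (edgeR adjusted p = 0.420). Insl5, a hormone of enteroendocrine cells of the distal colon, measured 12.5, 13.5 and 26.8 CPM in the knockout libraries and 1.21, 9.11 and 2.22 CPM in the wild-type libraries, without overlap (edgeR adjusted p = 0.409). Hoxb13, another homeobox gene of the hindgut, had a log2 fold change of 0.13. The labels used here do not give the position of the tumours in the colon, and its part in the members' values was not tested.

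For cell types in which Btnl9 and Btn2a2 are known, 14 endothelial genes gave 11 positive and 3 negative log2 fold changes, with a median of 0.31 and a summed level of 277.7 to 362.9 CPM in the knockout libraries and 243.0 to 311.8 CPM in the wild-type libraries. Leaving out wild-type replicate 1 put that median at 0.10 and leaving out knockout replicate 2 at 0.15. Of 8 adipocyte genes 3 passed the filter, with 1 positive and 2 negative values and a median of -0.06, which ran over -0.20 (without wild-type replicate 2) to 0.05 (without wild-type replicate 3). Cidec, a lipid droplet protein, had every knockout value below every wild-type value, at -0.97 (edgeR adjusted p = 0.444). Antigen presentation genes gave 10 positive and 2 negative values among 12, with a median of 0.26 that ran over -0.03 (without knockout replicate 2) to 0.52 (without wild-type replicate 3) as single libraries were left out. These genes were thus read in libraries where Btn2a2 was listed at 0. Of 11 macrophage and monocyte genes 10 were positive, with a median of 0.37. Their summed level was 735.1 to 954.3 CPM in the knockout libraries and 646.8 to 733.9 CPM in the wild-type libraries, ranges that nearly meet. Lyz2 alone gave 365.5 of the 735.1 CPM in knockout replicate 1. It gave 355.4 of the 733.9 CPM in wild-type replicate 2. Among molecular relatives, 8 ligands of the B7 family gave 4 positive and 4 negative values with a median of -0.05. A list of 7 TRIM genes, not all of which encode a B30.2 domain, gave 2 positive and 5 negative values, also with a median of -0.05. The B7 median changed sign as single libraries were left out, over -0.15 (without knockout replicate 3) to 0.13 (without knockout replicate 1), and the TRIM median ran over -0.18 (without knockout replicate 1) to -0.03 (without wild-type replicate 3). None of these genes passed the edgeR test.

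Wild-type replicate 1 was the lowest library for Btnl1, Btnl4, Btnl6, Btn1a1 and Btnl5-ps and had the lowest colonocyte and smooth muscle list means. The same library also had the lowest means of further lists. Among them were the pan-epithelial, goblet cell, epithelial transcription factor, small intestinal enterocyte, colon position and endothelial lists. The part of these cell types in the members' values was not tested.

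**Figure D5:**
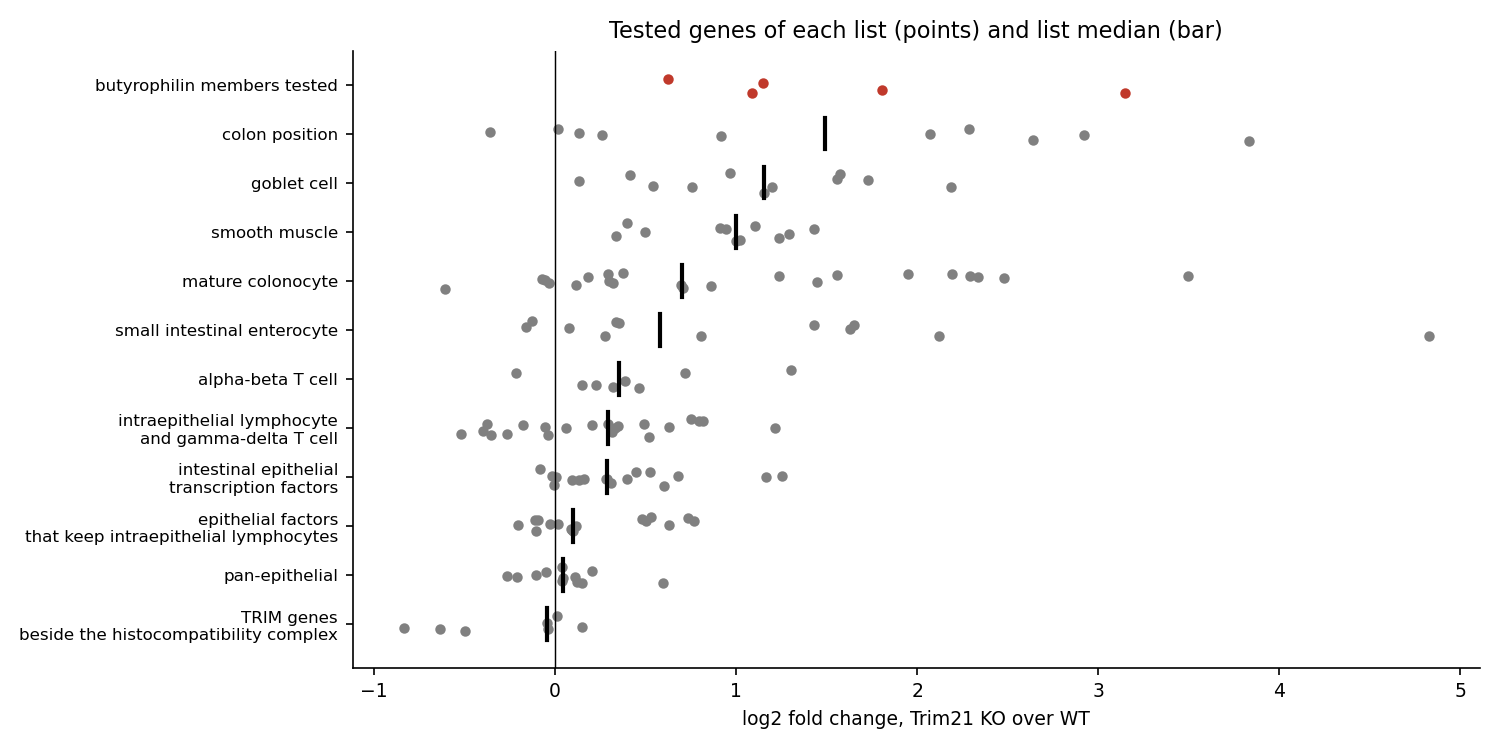
Log2 fold changes (knockout over wild type) of the 5 tested members (red, without a median) and of tested genes in the gene lists (grey), with a point for each gene and a black bar for each list's median. The medians are 1.49 for colon position, 0.70 for mature colonocytes, 1.00 for smooth muscle and 0.295 for intraepithelial lymphocytes.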

How the data were processed

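Total RNA of colon tumours was extracted with Trizol, depleted of ribosomal RNA and made into libraries with GenSeq kits, per the labels' protocols. The authors deposited raw counts of reads by gene symbol, as whole numbers, 1 table per sample, 6 in all. The submitters' processing notes name mm10, TopHat2, edgeR and limma, without versions or roles. The read counter, annotation, strand handling and treatment of reads with several matches are not given by the sources used here. The labels call the samples biological replicates without saying that each is a tumour of its own mouse, so a p-value covers only the spread among the samples given, which may be technical.

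The main test was edgeR's quasi-likelihood test (edgeR 4.0.16 in R 4.3.3). It used the 6 libraries together, TMM scaling and the group as sole factor, after filterByExpr had kept 16281 genes. P-values are two-sided, Benjamini-Hochberg adjusted over those genes, with 0.05 as the threshold. The SE of a log2 fold change is its absolute value divided by the square root of the test's F statistic. It is thus derived from the test and is no separate measure of spread. CPM is the count per 1000000 counts of the TMM-scaled library. It was computed from the deposited counts, and log2 CPM used a prior count of 2. RPKM divides CPM by merged exon length in GENCODE M21. Intervals and the limit of 3 reads cover counting error only. Up to 3 genes per list with the smallest unadjusted p could be named, besides the members, Trim21 and the 8 genes most like Btnl1. Btnl5-ps, BC051142, Ager, Ermap, Cd3e, Hoxb13 and Lyz2 were named outside this rule, after their values were seen. So were the genes that led the lymphocyte sum and the Hnf4 and Cdx genes past the first 3. The members, lists and motifs were chosen with earlier results of these data known. Alternatives were DESeq2 1.42.0, limma-voom (limma 3.58.1), other scalings, filters and lengths, a replicate block, and fits that drop 1 library. The fits were first checked on simulated counts.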

Additional observations from a re-analysis of the deposited data

How the results depend on the processing

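All 5 members tested kept a positive log2 fold change under every alternative run. With other tools, scalings and filters and with the replicate block, the log2 fold change ran over 3.15 to 3.19 for Btnl1, 1.80 to 1.93 for Btnl2, 0.62 to 0.70 for Btnl4, 1.14 to 1.31 for Btnl6 and 1.08 to 1.40 for Btn1a1. Leaving out each library gave 2.84 to 3.46 for Btnl1, 1.35 to 2.35 for Btnl2, 0.37 to 0.77 for Btnl4, 0.78 to 1.37 for Btnl6 and 0.65 to 1.99 for Btn1a1. The count of genes past the test depended on the tool. DESeq2 called 241 genes higher and 93 lower, where edgeR and limma-voom called 0, and the cause was not tested. Leaving out each library gave 0 to 1 genes higher (1 without wild-type replicate 3) and 0 lower. Whether equal replicate numbers pair samples is not given by the labels. Deviations from the group means correlated at -0.147, -0.175 and -0.0734 between same-numbered libraries and at -0.092 to 0.227 between the others. With 3 libraries per group these values cannot settle it. The fit with the replicate number as a block called 0 genes higher and 0 lower. With the longest transcript as the length, RPKM of Btnl1 was 2.16 in the knockout and 0.242 in the wild type, where merged exons gave 1.42 and 0.159. Btnl9, and Btnl1 and Btnl2 in the wild type, rest on at most 22 reads a library, so counting error limits their values.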
